A study of Mus musculus and Mus musculus musculus x Mus musculus castaneus with 52 samples.

Results

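A set of 7 genes that mark or maintain the naive state of mouse pluripotent stem cells were followed here: Nanog, Prdm14, Tcl1, Fbxo15, Zfp42 (also called Rex1), Dppa5a (Esg1) and Dppa3 (Stella). They were taken by their symbols from a table of 16687 genes, in which all 7 were found, and each is described in all 24 libraries. Females at passage 13 (P13) and passage 7 (P7) were the induced pluripotent stem cell (iPSC) lines LV20, LV21 and LV22, and males at P13 and P7 were the lines LV4, LV8 and LV16. All LV lines carry the label Mus musculus and a wild-type (WT) genotype, and the series names the P13 female lines XO. Embryonic stem cells (ESCs) at passage 5 were the XX lines CM1 and CM2 and the XY lines CM3 and CM7, all WT and all from crosses of musculus with castaneus mice. In a withdrawal experiment without feeder cells, LIF, the cytokine that keeps mouse ESCs undifferentiated, was removed for 24 h. It held 2 clones labelled Dusp9+/-, the WT XX line F121 and the WT XY line V6.5, each after 24 h and at 0 h. F121 and the clones come from the same kind of cross as the CM lines and V6.5 is Mus musculus. The genotype label does not say which part of Dusp9, an X-linked gene for a phosphatase of the kinase ERK, was changed.

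Naive pluripotency is the state of the early epiblast and of mouse ESCs grown with LIF, in which a network of transcription factors holds back differentiation. Nanog is a homeobox factor at the centre of that network, and Prdm14 is a PR-domain factor that represses FGF receptor genes and de novo DNA methyltransferases in mouse ESCs. Tcl1 is a cofactor of the kinase AKT, while Fbxo15, Zfp42, Dppa5a and Dppa3 are widely used as markers, since their transcripts are lost as cells leave the naive state. Female mouse ESCs keep both X chromosomes active and commonly lose one of them in culture.

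All 7 genes are autosomal. In the RefSeq annotation of GRCm38.p6, Prdm14 lies at chr1:13113428-13127163, Dppa3 at chr6:122626424-122630271, Nanog at chr6:122707489-122714633, Zfp42 at chr8:43295067-43307009, Dppa5a at chr9:78367052-78368199 and Tcl1 at chr12:105216753-105222737. Nanog and Dppa3 start 81.1 kb apart, with Slc2a3, Gdf3 and Apobec1 as further genes of that locus.

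Because the core pluripotency factors bind at promoters of this network, the promoter windows of 3 of the 7 members, from the RefSeq table, are shown, each from 250 bases before to 50 bases after the gene's start, on the strand of the gene. Capitals mark matches to TTTGCAT (the octamer part bound by Oct factors), CATTGT (a Sox site, printed as ACAATG where it lies on the other strand) and GGGTGTG (a Klf CACCC box, printed as CACACCC on the other strand). AAGGTCA (part of an Esrrb site) and TTCNNNGAA (a Stat site) were also searched on both strands.
Nanog, chr6:122707239-122707538, plus strand: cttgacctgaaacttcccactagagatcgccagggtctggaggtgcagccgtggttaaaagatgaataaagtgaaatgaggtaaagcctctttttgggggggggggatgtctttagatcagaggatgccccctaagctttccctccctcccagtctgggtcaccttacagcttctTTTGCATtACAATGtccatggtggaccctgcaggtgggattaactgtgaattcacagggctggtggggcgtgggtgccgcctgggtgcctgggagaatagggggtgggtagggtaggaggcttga
Zfp42, chr8:43306960-43307259, minus strand: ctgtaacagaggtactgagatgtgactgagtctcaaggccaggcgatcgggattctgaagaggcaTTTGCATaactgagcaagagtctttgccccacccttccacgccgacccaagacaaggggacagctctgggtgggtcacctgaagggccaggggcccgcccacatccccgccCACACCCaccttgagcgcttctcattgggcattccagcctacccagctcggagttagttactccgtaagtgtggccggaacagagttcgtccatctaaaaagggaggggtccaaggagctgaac
Tcl1, chr12:105222688-105222987, minus strand: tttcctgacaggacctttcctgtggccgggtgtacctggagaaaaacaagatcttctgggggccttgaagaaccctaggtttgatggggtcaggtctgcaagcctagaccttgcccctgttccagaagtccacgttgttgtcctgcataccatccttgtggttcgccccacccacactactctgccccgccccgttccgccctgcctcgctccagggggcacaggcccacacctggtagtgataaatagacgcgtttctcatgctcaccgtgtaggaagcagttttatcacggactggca
The windows are those of the first listed start. The Nanog window held TTTGCAT and ACAATG next to each other, with the first base of the octamer at position -75 from the start. The Zfp42 window held TTTGCAT with its first base at position -185 and CACACCC with its first base at position -74. None of the 5 motifs was in the Tcl1 window. Over 32851 promoters of the same length, 4.6% held the octamer part, 12.6% the Sox site, 8.0% the Klf box, 4.7% the part of an Esrrb site and 8.3% the Stat site. These are letter matches only. The other members are named without a window.

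Levels below are in log2 CPM, reads scaled, as the values themselves show, to an effective library size of 0.96 to 1.06 times the total reads, with an added offset whose floor is -2.45. They are compared within a gene, not between genes. The libraries held 8309171 to 14245900 reads. Reads per member and library ran from 31 for Prdm14 in V6.5 at 24 h to 10239 for Nanog. The core pluripotency list of 9 genes summed to between 3260 and 4680 CPM in every library, and none of its genes was at 0 in all libraries of a group. Several libraries stood apart. X-linked output, the median level on the X less the autosomal median, was at P7 0.33 for LV20, -0.29 for LV21 and 0.44 for LV22, against -0.75 to -0.60 in the males at P7, so LV21 lay between the other female lines and the males already at P7. Dusp9 RNA did not follow the label of the clones at both times. It was 7.71 and 6.58 in the libraries labelled Dusp9+/- 1 and 2 at 24 h, both below the 7.84 of F121, and 5.96 and 7.43 in them at 0 h, on either side of the 6.93 of F121. Their genotype is therefore given as a label throughout. Some libraries also carried a shift of a whole chromosome relative to the other autosomes: 0.42 and 0.30 on chromosome 8 in LV21 at P13 and P7, 0.41 and 0.35 on chromosome 8 in V6.5 at 24 h and 0 h, and 0.20 and 0.24 on chromosome 6 in F121 at 24 h and 0 h. Chromosomes without a member shifted too. In F121 chromosome 17 stood at -0.23 at both times and chromosome 10 at -0.17 at 24 h. Chromosome 11 stood at 0.17 to 0.22 in the iPSC libraries and at -0.29 to -0.19 in the ESC libraries. On chromosome 12 the shift was 0.41 in the library labelled clone 2 at 24 h and 0.45 in the one labelled clone 1 at 0 h, and -0.01 in the other library of each time, and these are the libraries with the lower Dusp9 RNA of each time, so the clone numbers do not follow the same chromosome pattern across times and changes are given over the clones together. The plot of chromosome shifts shows the values of chromosomes 6, 8 and 12 beside the genes around Nanog, Zfp42 and Tcl1.

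**Figure D1:**
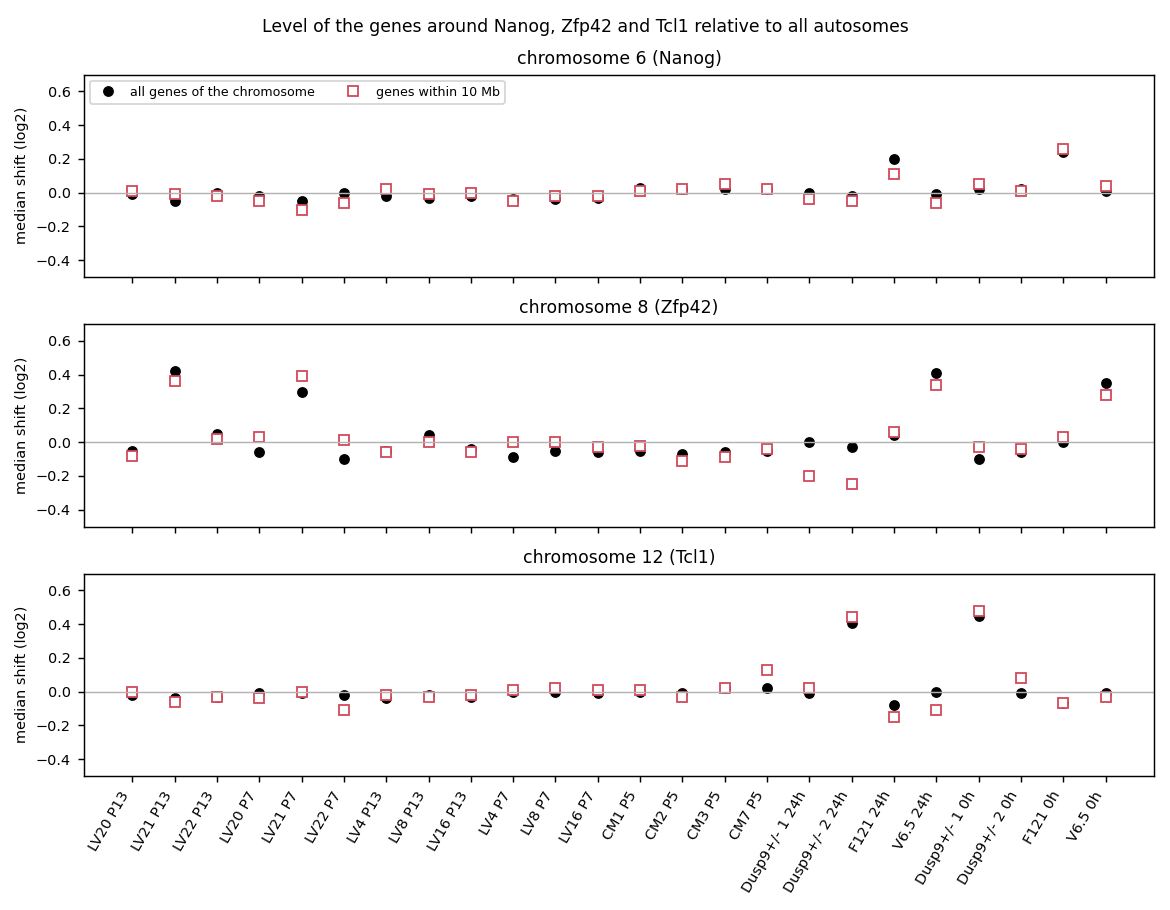
Median log2 level of all genes of chromosomes 6, 8 and 12 (filled circles) and of the genes within 10 Mb of Nanog, Zfp42 and Tcl1 (open squares), each relative to all autosomes, in the 24 libraries. Chromosome 8 stands high in LV21 (0.42 at P13, 0.30 at P7) and V6.5 (0.41 at 24 h, 0.35 at 0 h), chromosome 6 in F121, and chromosome 12 in 1 library labelled Dusp9+/- at each time.

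The highest and lowest groups differed by gene. Nanog was highest in the XX CM lines (9.54 ± 0.06, SD, n = 2), F121 at 0 h (9.44) and female iPSCs at P7 (9.40 ± 0.60, n = 3). F121 lay inside the range of the female iPSCs at P7, 8.71 to 9.75, whose lowest line, LV21, lay among the groups that followed. The next groups in the order, from the clones at 0 h (8.63 ± 0.09, n = 2) to male iPSCs at P13 (8.27 ± 0.15, n = 3), each overlapped the next one. F121 at 24 h (7.62), the clones at 24 h (7.35 ± 0.13, n = 2) and V6.5 at 24 h (6.32) came last without overlap. Prdm14 had the same top (6.34 ± 0.10, n = 2, in the XX CM lines and 6.08 in F121 at 0 h) and the same bottom (1.59 in V6.5 at 24 h). Tcl1 ran from 6.87 ± 0.06 (n = 2) in the XX CM lines to 4.04 in V6.5 at 24 h. By group mean, Fbxo15 and Zfp42 were highest in F121 at 0 h, at 8.63 and 8.34, followed by V6.5 at 0 h, at 7.82 and 8.01. Fbxo15 was lowest in V6.5 at 24 h (6.31), and Zfp42 in the XY CM lines (6.98 ± 0.24, n = 2). Dppa5a had the narrowest range, from 8.75 ± 0.18 (n = 2) in the clones at 0 h to 7.80 ± 0.16 (n = 3) in male iPSCs at P13, and most of its groups overlapped their neighbours. Dppa3 was ordered by experiment: all iPSC groups lay between 5.79 and 6.12, the CM lines at 5.08 ± 0.09 (XX, n = 2) and 5.54 ± 0.16 (XY, n = 2), and every library of the withdrawal experiment at or below 4.00.

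**Figure D2:**
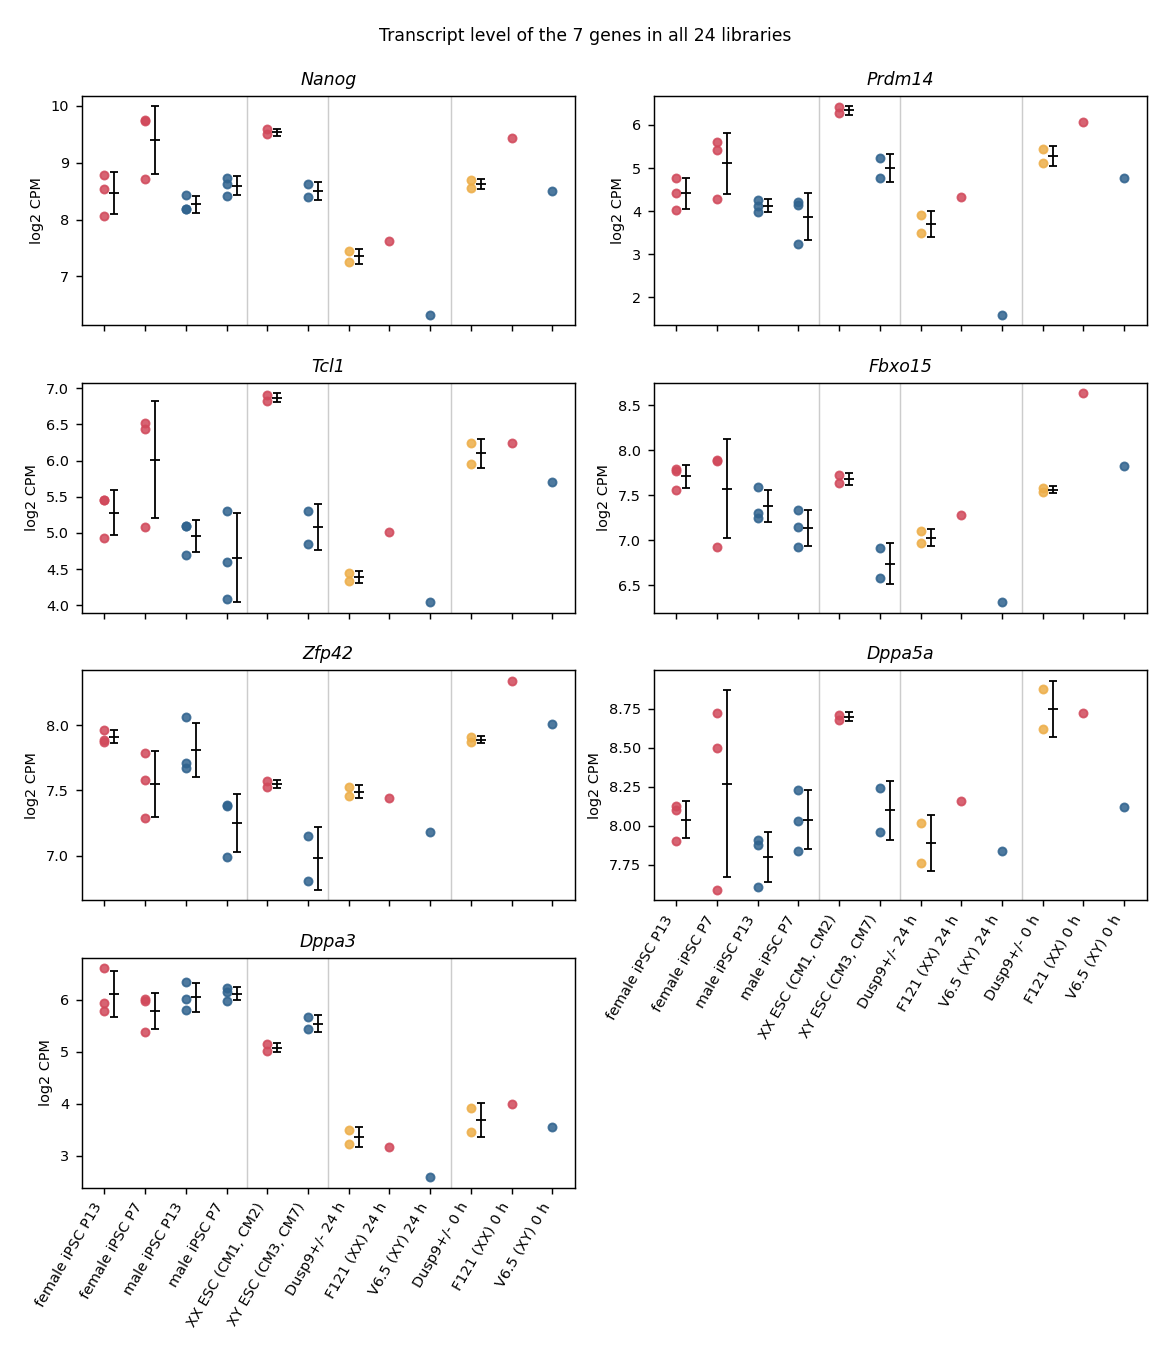
Log2 CPM of the 7 genes (points, 1 per library) in 12 groups, with mean ± SD beside groups of 2 or 3; red marks XX or female lines, blue XY lines and yellow the libraries labelled Dusp9+/-. By group mean, Nanog, Prdm14 and Tcl1 stand highest in the XX CM lines and lowest in V6.5 at 24 h (6.32, 1.59 and 4.04), while all Dppa3 values of the withdrawal experiment lie at or below 4.00.

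The XX and XY ESC lines ask whether the members follow the number of X chromosomes. In all, 6 of the 7 genes were higher in the XX lines, by 1.00 ± 0.08 (log2, SE) for Nanog, 1.34 ± 0.14 for Prdm14, 1.38 ± 0.24 for Tcl1, 0.89 ± 0.10 for Fbxo15, 0.49 ± 0.11 for Zfp42 and 0.60 ± 0.09 for Dppa5a. The fit took CM1, CM2 and F121 at 0 h as XX and CM3, CM7 and V6.5 at 0 h as XY, with the experiment as a covariate. F121 comes from a castaneus cross and V6.5 is Mus musculus, so X number and cross cannot be told apart between them. The CM lines are all from crosses with castaneus mice. Of all 14193 genes tested, 4.87% were called higher in XX lines (limma, Benjamini-Hochberg adjusted p under 0.05).

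Nanog had 9.50, 9.59 and 9.44 in CM1, CM2 and F121, against 8.62, 8.40 and 8.51 in CM3, CM7 and V6.5. All XX lines were above all XY lines, and the gap of 2.00-fold had an adjusted p of 0.000695 (limma). Prdm14 had 6.27, 6.41 and 6.08 in the same XX lines, against 5.23, 4.76 and 4.77 in the XY lines, a 2.52-fold difference with an adjusted p of 0.00196 (limma) and again no overlap. Tcl1 had 6.91, 6.83 and 6.25 in the XX lines, against 5.31, 4.85 and 5.71 in the XY lines (limma adjusted p 0.0139). The groups did not overlap, but F121 exceeded V6.5 by only 0.54 where the CM means differed by 1.79.

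Among the marker genes, Fbxo15, an F-box protein of a ubiquitin ligase complex, had 7.72, 7.63 and 8.63 in the XX lines, against 6.91, 6.58 and 7.82 in the XY lines (limma adjusted p 0.00231). Zfp42, a zinc finger protein, had 7.57, 7.53 and 8.34 in the XX lines, against 7.15, 6.81 and 8.01 in the XY lines (limma adjusted p 0.0312). For both genes V6.5 lay above CM1 and CM2, so the groups overlapped. The difference is seen within each experiment: 0.93 and 0.57 between the CM means, and 0.81 and 0.33 between F121 and V6.5, which also differ in cross. Dppa5a, a KH-domain RNA-binding protein, had 8.71, 8.68 and 8.72 in the XX lines, against 8.24, 7.96 and 8.12 in the XY lines, with no overlap (limma adjusted p 0.00567). Dppa3, which protects methylation of the maternal genome in the zygote, had 5.02, 5.15 and 4.00 in the XX lines, against 5.66, 5.43 and 3.56 in the XY lines. Its difference of -0.16 ± 0.20 missed the threshold (limma adjusted p 0.677), and its sign was not the same in both experiments, -0.46 between the CM means and 0.44 between F121 and V6.5.

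With the CM lines alone the same 6 genes were called, Nanog at 1.04 ± 0.08 (limma adjusted p 6.48e-05), Prdm14 at 1.35 ± 0.16 (0.000533), Tcl1 at 1.79 ± 0.15 (7.38e-05), Fbxo15 at 0.93 ± 0.11 (0.000606), Zfp42 at 0.57 ± 0.11 (0.00878) and Dppa5a at 0.60 ± 0.09 (0.00261). Nanog, Prdm14 and Fbxo15 kept their calls when any 1 library was left out. Over all genes 208 to 1682 were called with 1 library left out, against 1020 with all libraries and 1690 with the CM lines alone. Tcl1 lost its call without CM1 (1.23, limma adjusted p 0.0821), CM2 (1.28, 0.0972) or CM3 (1.39, 0.0589), Zfp42 without CM1 (0.46, 0.158), CM2 (0.48, 0.163) or CM7 (0.37, 0.0521), and Dppa5a without CM1 (0.59, 0.0533) or CM2 (0.61, 0.054). Chromosome 8, where Zfp42 lies, stood 0.35 high in V6.5 and chromosome 6, where Nanog lies, 0.24 high in F121. The same number of members, 6, and 1058 of all genes were called when each gene was set against the shift of its chromosome. Without the covariate, Tcl1 (0.0585), Fbxo15 (0.358) and Zfp42 (0.614) missed the threshold at unchanged differences, and 149 of all genes were called. A lower share of pluripotent cells and less of a transcript per cell cannot be told apart in bulk RNA, here and below.

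Of 22 other genes of the naive network, 3 were higher in the XX lines: Tbx3, a T-box factor, by 1.14 ± 0.16 (limma adjusted p 0.00516), Jam2, an adhesion molecule, by 1.12 ± 0.10 (0.000956) and Klf5, a Krüppel-like factor, by 0.41 ± 0.08 (0.0156). The list's median difference was 0.20, beside -0.01 over all genes tested. Of 11 genes for partners of Prdm14 or genes it is known to repress, Dnmt3b and Dnmt3a, the de novo DNA methyltransferases, were lower in the XX lines by -1.19 ± 0.18 and -0.73 ± 0.13 (limma adjusted p 0.00771 and 0.0156), and Suz12, a Polycomb subunit, was higher by 0.61 ± 0.07 (0.00231). Of 14 formative and primed genes, Etv4, a target of ERK signalling, and Sall2, a zinc finger factor, were lower by -1.25 ± 0.11 and -0.97 ± 0.22 (limma adjusted p 0.00107 and 0.0376). Lin28a, which binds RNA, was the 1 called gene among 9 core pluripotency genes and was lower by -0.91 ± 0.11 (limma adjusted p 0.00319). Fibroblast and feeder markers summed to 5170 to 5700 CPM in CM1 and CM2, 4930 to 5770 CPM in CM3 and CM7, 5650 CPM in F121 and 6190 CPM in V6.5, and 0 of 21 were called. Xist, the RNA behind X inactivation, averaged 6.11 in the XX lines and -0.28 in the XY lines. Y-linked RNA was present in the XX lines too: Ddx3y, Eif2s3y, Uty and Kdm5d averaged 2.79, 2.10, 1.09 and 1.12. In the XY lines they averaged 5.93, 5.37, 5.29 and 1.13. The source of this RNA was not tested.

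In iPSCs at P7 Prdm14 and Tcl1 were called higher in the female lines, by 1.24 ± 0.33 and 1.35 ± 0.35, while Nanog differed by 0.80 ± 0.23 without passing the test. That is 2 of 7 members, where 3.05% of 13978 genes were called higher (limma, adjusted p under 0.05).

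Prdm14 had 5.61, 4.29 and 5.42 in LV20, LV21 and LV22, against 3.24, 4.22 and 4.15 in LV4, LV8 and LV16. LV21 lay just above the highest male, so the groups met without overlapping, and the difference of 2.35-fold had an adjusted p of 0.044 (limma). Tcl1 had 6.44, 5.08 and 6.52 in the female lines, against 4.09, 4.60 and 5.30 in the males. LV21 lay below LV16, and the 2.55-fold difference had an adjusted p of 0.0396 (limma). Nanog had 9.74, 8.71 and 9.75 in the female lines, against 8.42, 8.63 and 8.74 in the males, with LV21 below LV16 (limma adjusted p 0.0623). LV20 and LV22 lay above every male for all 3 regulators.

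The marker genes showed the same split within the female group. Fbxo15 had 7.88, 6.93 and 7.89 in the female lines, against 6.93, 7.15 and 7.33 in the males, a difference of 0.43 ± 0.20 (limma adjusted p 0.232). Dppa5a had 8.72, 7.59 and 8.50 in the female lines, against 7.84, 8.23 and 8.03 in the males, a difference of 0.23 ± 0.21 (0.568). LV21 was the lowest of all 6 libraries for Dppa5a. Zfp42 had 7.58, 7.29 and 7.79 in the female lines, against 7.39, 6.99 and 7.38 in the males (0.30 ± 0.14, limma adjusted p 0.226), and Dppa3 had 6.01, 5.39 and 5.97, against 5.97, 6.22 and 6.15 (-0.33 ± 0.21, limma adjusted p 0.397). LV21 was below the other female lines for every one of the 7 genes.

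The calls at P7 changed with the libraries in the fit, as did the number called over all genes. That number was 668 with all libraries and 123, 44, 285, 59 and 209 without LV20, LV22, LV4, LV8 and LV16. Without LV21 the difference was 1.15 ± 0.16 for Nanog (limma adjusted p 0.000458), 0.75 ± 0.13 for Fbxo15 (0.00157), 0.43 ± 0.13 for Zfp42 (0.0475) and 0.57 ± 0.12 for Dppa5a (0.00828), and 6 of 7 genes were called. Of all genes 1727 were called in that fit. Prdm14 lost its call without LV20 (0.98, adjusted p 0.172), LV22 (1.08, 0.198), LV4 (0.92, 0.148), LV8 (1.41, 0.0978) or LV16 (1.38, 0.0771) by limma, and Tcl1 without LV20 (1.14, 0.15), LV22 (1.09, 0.197), LV4 (1.06, 0.133) or LV8 (1.32, 0.137). With voom on the recovered reads neither passed (adjusted p 0.0637 and 0.0643).

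The plot of gene level against X-linked output places LV20 and LV22 at P7 apart from the other 10 iPSC libraries, with X-linked output of 0.33 and 0.44 and the highest Nanog, Prdm14 and Tcl1. LV22 at P13 (-0.32) and LV21 at P7 (-0.29) came next in X-linked output and were close to each other in Nanog, 8.78 and 8.71. The remaining libraries lay between -0.76 and -0.58. Zfp42 did not follow this order: its highest values were 8.06 in LV8 and 7.96 in LV21, both at P13. Chromosome 8, where Zfp42 lies, stood 0.04 high in LV8 and 0.42 high in LV21 at P13, and its part in these values was not tested.

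**Figure D3:**
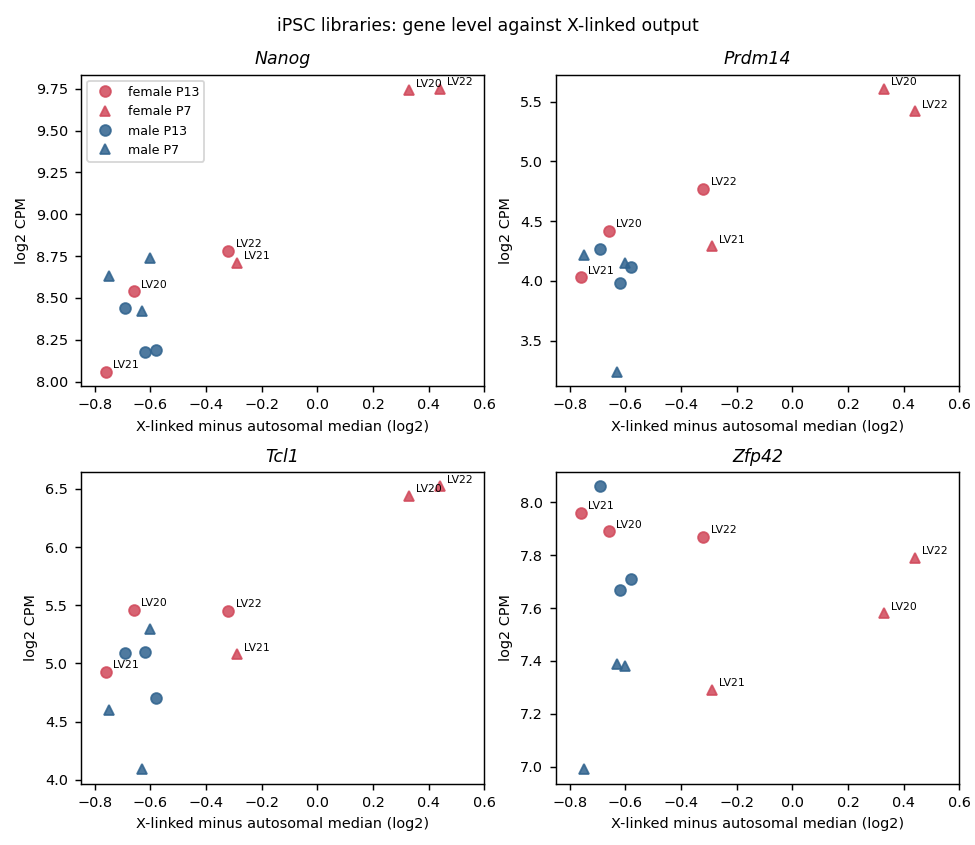
Log2 CPM of Nanog, Prdm14, Tcl1 and Zfp42 (y axes) against X-linked output, the X median less the autosomal median (x axis, log2), in the 12 iPSC libraries; circles are P13, triangles P7, red female and blue male lines. LV20 and LV22 at P7 sit at 0.33 and 0.44 with the highest Nanog, Prdm14 and Tcl1, and LV21 at P7 sits at -0.29.

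Among other genes at P7, 6 of 22 naive network genes were higher in the female lines. They include Tbx3 by 1.98 ± 0.31 (limma adjusted p 0.00571), Dppa2, a chromatin protein of early embryos, by 0.98 ± 0.22 (0.0271) and Klf5 by 0.74 ± 0.15 (0.0168). The list's median was 0.29, beside 0.00 over all genes. Of the core pluripotency list, Pou5f1 (Oct4) was higher by 0.34 ± 0.08 (limma adjusted p 0.0271). Of the Prdm14 list, Uhrf1, which guides maintenance methylation, was lower by -0.30 ± 0.08 (0.0387), and of the formative and primed list Foxd3, a forkhead factor, was higher by 2.42 ± 0.42 (0.00907). Fibroblast and feeder markers (21 genes) summed to 3460 to 4610 CPM in the female lines and 3910 to 4320 CPM in the male lines.

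At P13 none of the 7 genes passed the test between female and male lines by limma or by voom on the recovered reads, and none had an unadjusted p under 0.05. Over all genes 0.0286% were called (4 of 13978, also 4 with voom, and 376 at an unadjusted p under 0.05). Nanog had 8.54, 8.06 and 8.78 in LV20, LV21 and LV22, against 8.19, 8.44 and 8.18 in LV4, LV8 and LV16, a difference of 0.19 ± 0.23 (limma adjusted p 0.999). Prdm14 had 4.42, 4.03 and 4.77, against 4.12, 4.27 and 3.98, and Tcl1 had 5.46, 4.93 and 5.45, against 4.70, 5.09 and 5.10, with differences of 0.28 ± 0.33 and 0.32 ± 0.35 (both limma adjusted p 0.999). The groups overlapped for all 7 genes, and 0 of the 22 other naive genes were called. Zfp42 had 7.89, 7.96 and 7.87, against 7.71, 8.06 and 7.67, with chromosome 8 standing 0.42 high in LV21. X-linked output was -0.66, -0.76 and -0.32 in the same female lines, against -0.69 to -0.58 in the males.

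In the fit of group means, without the line as a block, Nanog was the 1 member called lower in female iPSCs at P13 relative to P7. The difference was -0.94 ± 0.23 (limma adjusted p 0.0252), where 4.68% of 13978 genes were called lower. The P13 minus P7 difference of Nanog was -1.20 for LV20, -0.65 for LV21 and -0.97 for LV22. It was -1.19, -0.26 and -0.64 for Prdm14 and -0.98, -0.15 and -1.07 for Tcl1 in the same lines, and their means of -0.70 ± 0.33 and -0.73 ± 0.35 missed the threshold (limma adjusted p 0.19 and 0.194). The sign differed between lines for Fbxo15 and Dppa5a, with 0.63 and 0.54 in LV21, -0.11 in both LV20 and LV22 for Fbxo15, and -0.62 and -0.60 in LV20 and LV22 for Dppa5a.

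The Nanog call ended without LV20 at P13 (-0.98, limma adjusted p 0.0713), LV21 at P13 (-0.74, 0.0732), LV20 at P7 (-0.77, 0.117) or LV22 at P7 (-0.76, 0.0986). Without LV21 at P7, Prdm14 (-1.10, limma adjusted p 0.0166), Tcl1 (-1.20, 0.00985) and Dppa5a (-0.57, 0.0088) were called lower too. Over all genes the count was 1258 with every library and 2079 without LV21 at P7. It was 304, 1020, 174 and 393 in the fits without LV20 at P13, LV21 at P13, LV20 at P7 and LV22 at P7. With the line as a block Tcl1 was called beside Nanog (-0.73, limma adjusted p 0.0434, and 0.00193 for Nanog). X-linked output changed by -0.99, -0.47 and -0.76 in LV20, LV21 and LV22.

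In the male lines Zfp42 was the 1 member called, higher at P13 by 0.56 ± 0.14 (limma adjusted p 0.0193), where 7.23% of 13978 genes were called higher. It had 7.71, 8.06 and 7.67 at P13, against 7.39, 6.99 and 7.38 at P7, in LV4, LV8 and LV16. The passages did not overlap, and LV8 had the largest change, 1.06, beside 0.32 and 0.29. The call ended without LV8 at P13 (0.44, limma adjusted p 0.0899), LV8 at P7 (0.43, 0.105) or LV4 at P13 (0.61, 0.0545), and when each gene was set against the shift of its chromosome (0.50, 0.0886). In the female lines Zfp42 had 7.89, 7.96 and 7.87 at P13, against 7.58, 7.29 and 7.79 at P7, also without overlap but below the threshold (0.35 ± 0.14, limma adjusted p 0.12). For Nanog the difference was -0.24, -0.20 and -0.55 in LV4, LV8 and LV16, a mean of -0.33 ± 0.23 (limma adjusted p 0.371), so its level was lower at P13 in all 6 iPSC lines.

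The change with passage was not shown to differ between the sexes. The female change minus the male change was -0.61 ± 0.33 for Nanog, -0.95 ± 0.46 for Prdm14 and -1.03 ± 0.49 for Tcl1 (limma adjusted p 0.606, 0.572 and 0.562), and for the other 4 genes between -0.20 and 0.38. No member and 0% of all genes were called by limma or by voom, with 0 of 7 members and 1242 of 13978 genes at an unadjusted p under 0.05. Without LV21 at P7 the difference for Nanog was -0.95 ± 0.21 and passed (limma adjusted p 0.0464). Of all genes 145 were called in that fit, against 0 with all libraries.

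Other naive network genes moved in both directions with passage. In female lines 6 of 22 were higher at P13 and 2 lower, among them Gbx2, a homeobox factor, by 1.31 ± 0.32 (limma adjusted p 0.0245), Spp1, a secreted glycoprotein, by 1.17 ± 0.22 (0.00963), Socs3, an inhibitor induced by LIF and Stat3, by -1.11 ± 0.18 (0.00575) and Klf4 by -0.77 ± 0.12 (0.00575). In male lines 7 were higher and 2 lower, among them Dppa2 by 1.40 ± 0.22 (0.00278), Spp1 by 1.19 ± 0.22 (0.00499), Gbx2 by 1.15 ± 0.32 (0.031) and Socs3 by -1.31 ± 0.18 (0.00135). In the Prdm14 list Dnmt3l and Dnmt3a were higher in female lines at P13, by 1.03 ± 0.22 and 0.83 ± 0.20 (limma adjusted p 0.0157 and 0.0247). Fibroblast and feeder markers moved with passage: 8 of 21 were called higher in female and 15 of 21 in male lines at P13. Their sums were 3960 to 6790 CPM at P13 and 3460 to 4610 CPM at P7 in female lines, and 5140 to 8610 CPM at P13 and 3910 to 4320 CPM at P7 in male lines. Other lists also held called genes at P13: of 9 primitive endoderm markers tested 1 was higher in female lines and 3 in male lines (Pdgfra by 1.58 ± 0.34, Dab2 by 1.38 ± 0.35 and Col4a2 by 0.82 ± 0.25, limma adjusted p 0.0102, 0.0202 and 0.046). Of 9 core pluripotency genes 1 was higher in female and 3 in male lines, and of 14 formative and primed genes 1 in female and 2 in male lines. Beside these stand all 13978 genes: in female lines 1258 were called, 654 of them lower, and in male lines 1010 were called higher. Counts of 1 or 2 genes in such short lists are not read as a shift of the list. The Y-linked gene Eif2s3y averaged 2.11 at P13 and 0.42 at P7 in the female lines. The part of these in the changes of the members was not tested.

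The libraries labelled Dusp9+/- were set against F121 as lines of the same cross that differ in the labelled Dusp9 genotype. At 0 h 3 of 7 genes were lower in them: Fbxo15 by -1.08 ± 0.11 (limma adjusted p 0.015), Nanog by -0.81 ± 0.12 (0.0245) and Zfp42 by -0.45 ± 0.09 (0.0432). Of 14335 genes 4.10% were called lower. Each group mean of F121 is 1 library, assumed to vary like the clones. Xist averaged 7.65 in the libraries labelled Dusp9+/- and 4.24 in F121 at 0 h (3.41 ± 0.19, limma adjusted p 0.00784), and X-linked output was 0.34 and 0.15, against 0.10 in F121. Their part in the members' differences was not tested.

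Nanog had 8.69 and 8.56 in the libraries labelled Dusp9+/-, against 9.44 in F121. Both lay close to V6.5, at 8.51. Prdm14 had 5.45 and 5.11, against 6.08 in F121, a difference of -0.80 ± 0.25 that missed the threshold (limma adjusted p 0.0935). Tcl1 had 6.24 and 5.96, against 6.25 in F121 (-0.15 ± 0.16, limma adjusted p 0.562). The library with 6.24 is the one with the shift of 0.45 on chromosome 12, where Tcl1 lies.

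Fbxo15 had 7.58 and 7.53 in the libraries labelled Dusp9+/-, against 8.63 in F121, and Zfp42 had 7.87 and 7.91, against 8.34. Both were below F121 in both clones. Dppa5a had 8.88 and 8.62, against 8.72 in F121 (0.03 ± 0.16, limma adjusted p 0.914), and Dppa3 had 3.92 and 3.46, against 4.00 (-0.31 ± 0.27, 0.475). F121 lay inside the range of the clones for Dppa5a only. For Prdm14, Tcl1 and Dppa3 it lay outside that range although the difference was not called. At 24 h it lay outside the range of the clones for every member, and none was called. Lying outside the range of so few libraries is therefore not read as a difference, and its share over all genes is not given.

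Nanog lies on chromosome 6, which stood 0.24 high in F121 at 0 h and 0.02 in both libraries labelled Dusp9+/-, and the 165 genes within 10 Mb of it stood 0.26 high in F121. Set against the shift of its chromosome, Nanog was still lower, by -0.58 ± 0.12 (limma adjusted p 0.0344), and so was Fbxo15, while Zfp42 missed the threshold (-0.37 ± 0.10, 0.0573). Of all genes 1468 were called in that fit, against 1277 in the main fit. The count over all genes was 1904 in a fit over both times and 200 without the filter on low values. In a fit over both times the calls ended for Nanog (-0.54, limma adjusted p 0.0912), Fbxo15 (-0.66, 0.0751) and Zfp42 (-0.20, 0.303), Zfp42 also lost its call without clone 1 (-0.42, 0.0502), and without the filter on low values Nanog (0.0516) and Zfp42 (0.0627) did.

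Of 22 other naive genes 11 were called lower and 1 higher, with a median of -0.58 beside -0.01 over all genes. The lower ones include Nr5a2, an orphan nuclear receptor, by -1.40 ± 0.13 (limma adjusted p 0.0144), Tet2, which oxidises methylcytosine, by -1.14 ± 0.09 (0.0135), Tbx3 by -1.05 ± 0.14 (0.0212) and Tdh, the threonine dehydrogenase of mouse ESCs, by -0.98 ± 0.21 (0.0465). Of the formative and primed list 3 of 13 tested were higher, Fgf5, a marker of the primed epiblast, by 2.32 ± 0.19 (0.0135), Pou3f1 (Oct6) by 1.75 ± 0.30 (0.0293) and Sall2 by 1.08 ± 0.21 (0.0376), and 3 were lower, among them Foxd3 by -1.14 ± 0.25 (0.0464). Of the Prdm14 list Fgfr2 and Dnmt3b were higher by 0.87 ± 0.14 and 0.72 ± 0.09 (limma adjusted p 0.0263 and 0.0199). Fibroblast and feeder markers summed to 2150 and 3130 CPM in the libraries labelled Dusp9+/-, against 5650 CPM in F121 and 6190 CPM in V6.5, and 8 of 21 were called lower than in F121. Their part in the differences was not tested.

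At 24 h none of the 7 genes was called between the libraries labelled Dusp9+/- and F121 by limma or voom, with 2 of 7 at an unadjusted p under 0.05. Over all genes 2.55% were called by limma (366 of 14335, 16 with voom and 3590 at an unadjusted p under 0.05). Nanog had 7.26 and 7.45 in the libraries labelled Dusp9+/-, against 7.62 in F121 (-0.27 ± 0.12, limma adjusted p 0.224), and Fbxo15 had 6.97 and 7.10, against 7.28 (-0.25 ± 0.11, 0.214). Tcl1 had 4.33 and 4.45, against 5.01 (-0.62 ± 0.16, limma adjusted p 0.0947), with the shift of 0.41 on chromosome 12 in the library at 4.45. The difference passed once each gene was set against the shift of its chromosome (-0.90 ± 0.17, 0.0465). Of the other lists, Tfap2c was higher by 1.99 ± 0.29 (limma adjusted p 0.0412), and Manba, a lysosomal enzyme of the naive list, and Zic2, a zinc finger factor, were lower by -0.79 ± 0.13 and -0.88 ± 0.12 (0.0454 and 0.0402). The change with withdrawal in the libraries labelled Dusp9+/- minus that in F121 was 0.54 ± 0.17 for Nanog, 0.83 ± 0.15 for Fbxo15 and 0.51 ± 0.13 for Zfp42. No member was called for this difference (limma adjusted p 0.324, 0.212 and 0.272), 0% of all genes were, by limma or by voom, and 3 of 7 members and 1766 of 14335 genes had an unadjusted p under 0.05.

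All 7 genes were lower after 24 h without LIF, where 15.9% of 14335 genes were called lower (limma, adjusted p under 0.05). Prdm14 fell by 2.03 ± 0.27 on the log2 scale, Nanog by 1.64 ± 0.15, Tcl1 by 1.58 ± 0.11, Fbxo15 by 0.97 ± 0.17, and Dppa5a, Zfp42 and Dppa3 by 0.64 ± 0.12, 0.63 ± 0.10 and 0.62 ± 0.18.

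Prdm14 had 3.49 and 3.92 in the libraries labelled Dusp9+/-, 4.32 in F121 and 1.59 in V6.5 at 24 h, against 5.45 and 5.11, 6.08 and 4.77 at 0 h (limma adjusted p 0.00196). All lines were lower at 24 h, and V6.5 stood lowest, with 31 reads. Nanog had 7.26 and 7.45, 7.62 and 6.32 at 24 h, against 8.69 and 8.56, 9.44 and 8.51 at 0 h (limma adjusted p 0.000681). Tcl1 had 4.33 and 4.45, 5.01 and 4.04 at 24 h, against 6.24 and 5.96, 6.25 and 5.71 at 0 h (limma adjusted p 0.000371). For these 3 regulators the highest value at 24 h was below the lowest at 0 h.

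Fbxo15 had 6.97 and 7.10 in the libraries labelled Dusp9+/-, 7.28 in F121 and 6.31 in V6.5 at 24 h, against 7.58 and 7.53, 8.63 and 7.82 at 0 h (limma adjusted p 0.00563). Zfp42 had 7.46 and 7.53, 7.44 and 7.18 at 24 h, against 7.87 and 7.91, 8.34 and 8.01 at 0 h (limma adjusted p 0.00365). Neither gene overlapped between times. Dppa5a had 7.76 and 8.02, 8.16 and 7.84 at 24 h, against 8.88 and 8.62, 8.72 and 8.12 at 0 h, with F121 at 24 h above V6.5 at 0 h (limma adjusted p 0.00696). Dppa3 had 3.22 and 3.50, 3.17 and 2.59 at 24 h, against 3.92 and 3.46, 4.00 and 3.56 at 0 h, and the times overlapped among the libraries labelled Dusp9+/- (limma adjusted p 0.0318).

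The calls of 6 genes held in every alternative run for them, while that of Dppa3 ended without any 1 of 6 libraries, both F121 libraries (-0.55, limma adjusted p 0.106 and 0.108 at 24 h and 0 h), both V6.5 libraries (-0.50, 0.102 and 0.105) and both libraries labelled clone 1 (-0.62, 0.0739 and -0.58, 0.0692), and with line and clone as a block (0.0595). For Prdm14 the 24 h minus 0 h difference was -3.18 in V6.5 and -1.77 in F121, each from 1 library a time, so the spread behind their comparison comes from the libraries labelled Dusp9+/- alone. The difference of -1.41 ± 0.40 between these changes did not pass (limma adjusted p 1), no member and 0% of genes were called for it by limma or voom, and 1 of 7 members and 612 of 14335 genes had an unadjusted p under 0.05.

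Of 22 other naive genes 13 were lower at 24 h and 4 higher, with a median of -0.78 beside 0.02 over all genes. The largest decreases were in Tbx3 (-3.08 ± 0.28, limma adjusted p 0.000631), Klf4 (-2.69 ± 0.24, 0.000638), Socs3 (-2.68 ± 0.17, 0.000218) and Tfcp2l1, a transcription factor downstream of Stat3 (-2.34 ± 0.21, 0.000623). Of 9 core pluripotency genes 0 were called lower and 4 higher, Utf1 by 0.85 ± 0.20, Lin28a by 0.63 ± 0.10, Zfp281 by 0.62 ± 0.06 and Rif1 by 0.33 ± 0.06 (limma adjusted p 0.0144, 0.00316, 0.000856 and 0.0058). Of the 11 Prdm14 partners and repressed genes 4 were higher and 3 lower. Dnmt3a and Dnmt3b were higher by 1.58 ± 0.30 and 1.57 ± 0.12 and Fgfr2 by 1.05 ± 0.12 (limma adjusted p 0.00735, 0.000423 and 0.00107), while Tfap2c, an AP-2 factor of early germ cells and trophoblast, was lower by -1.47 ± 0.35 (0.017). Of 13 formative and primed genes 8 were higher and 2 lower, the higher ones led by Fgf5 (2.75 ± 0.54, 0.00783), Sall2 (2.49 ± 0.26, 0.000856), Pou3f1 (2.35 ± 0.40, 0.00463) and Lef1, a Wnt pathway factor (1.91 ± 0.23, 0.00139). Fibroblast and feeder markers were lower at 24 h in 10 of 21 cases, with sums of 1890 to 3550 CPM at 24 h and 2150 to 6190 CPM at 0 h. Of the Y-linked genes, Ddx3y and Kdm5d were lower at 24 h by -1.29 ± 0.42 and -0.80 ± 0.26 (limma adjusted p 0.0476 and 0.048), while Eif2s3y and Uty missed the threshold. The part of these genes in the changes of the members was not tested. Of 8 primitive endoderm markers tested 3 were lower at 24 h, Lama1, a laminin, by -2.19 ± 0.17, Pdgfra by -2.11 ± 0.36 and Dab2 by -1.27 ± 0.26 (limma adjusted p 0.000432, 0.00484 and 0.00967).

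**Figure D4:**
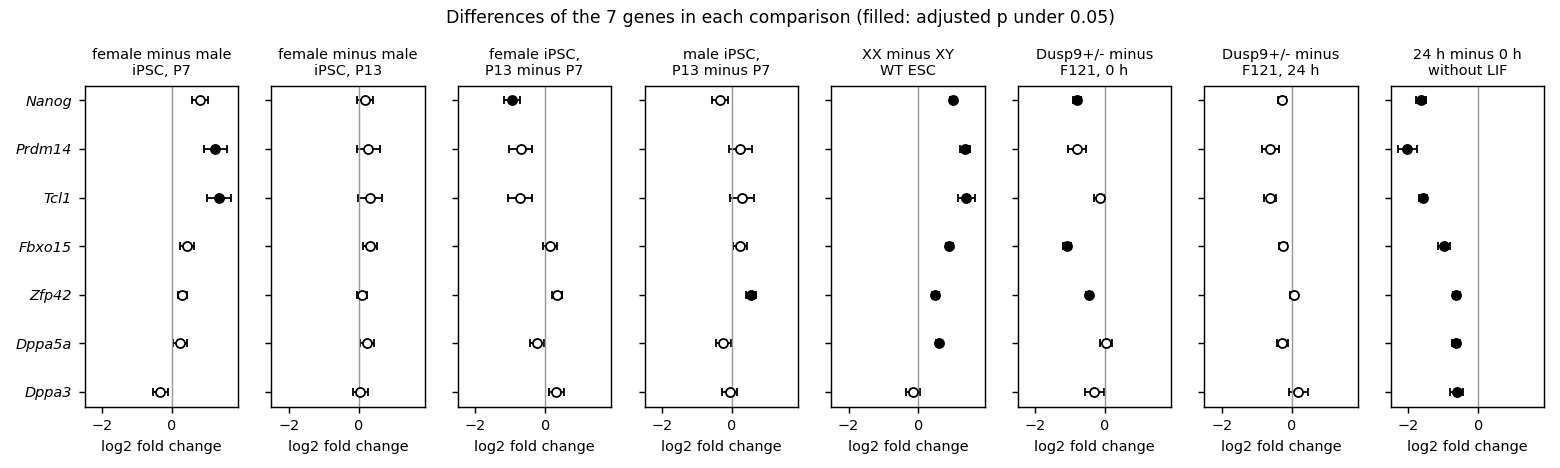
Log2 fold changes (points) ± SE (bars) of the 7 genes in 8 comparisons by limma; filled points have an adjusted p under 0.05. In XX against XY ESCs 6 genes are filled to the right, 3 to the left in the libraries labelled Dusp9+/- at 0 h, and all 7 to the left at 24 h without LIF.

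Genes that start within 100 kb of a member had differences of their own. Slc2a3, a glucose transporter 20.3 kb from Nanog, was lower at P13 in female and male iPSCs (-0.73 ± 0.16 and -1.01 ± 0.16, limma adjusted p 0.0178 and 0.00289) and at 24 h (-1.57 ± 0.08, 0.000125). Gdf3, a TGF-beta family ligand 21.0 kb from Dppa3, was higher at P13 in both sexes (0.54 ± 0.10 each, limma adjusted p 0.00931 and 0.00541) and lower in the libraries labelled Dusp9+/- at 0 h (-0.75 ± 0.12, 0.0265). Ooep, a KH-domain gene of oocytes 9.9 kb from Dppa5a, was higher in XX ESCs (1.36 ± 0.12, 0.00086) and lower at 24 h (-0.80 ± 0.12, 0.00271), as Dppa5a was. Fbxo15 lies at chr18:84934552-84981476 in GRCm38.p6. Timm21, which starts 11.6 kb from it, was lower in XX ESCs (-0.86 ± 0.18, limma adjusted p 0.0294) and higher at 24 h (0.96 ± 0.13, 0.00211), the opposite of Fbxo15.

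Over the 24 libraries, which share lines, passages and experiments, the members were compared by Pearson correlation, given as a description. Prdm14 and Tcl1 had r = 0.90, Nanog and Prdm14 0.87, Nanog and Tcl1 0.83, Tcl1 and Dppa5a 0.83, Fbxo15 and Zfp42 0.82, and Prdm14 and Dppa5a 0.76. Over the 12 iPSC libraries the same pairs had 0.94, 0.86, 0.84, 0.71, 0.67 and 0.71, and Fbxo15 had 0.81 with Tcl1 and 0.78 with Prdm14. Nanog and Zfp42 had 0.28 over all libraries and -0.10 over the iPSCs. Among 11419 genes, those most like each member were Ulk1, an autophagy kinase, Tubb2b, a tubulin, and Il6st (gp130, the signalling subunit of the LIF receptor) for Nanog, with r of 0.91, 0.91 and 0.90. For Prdm14 they were Jam2 (0.93), Prickle2 and Serpinb6c (0.92 each), and for Tcl1 they were Mtmr12, Prdm14 and Usp48 (0.90 each). Mreg (0.90), Slc13a5, a citrate transporter (0.84), and Myof (0.83) were most like Fbxo15, and Laptm5, Myof (0.83 each) and Fbxo15 (0.82) most like Zfp42. Usp48 (0.87), Ooep and Fig4 (0.85 each) were most like Dppa5a.

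Dppa3 had at most 0.52, with Nanog, among these pairs over the 24 libraries. Its most similar genes, Gm13456, Ewsr1, which binds RNA, and Rpl41, a ribosomal protein gene, had r of 0.95, 0.95 and 0.94 over all libraries but 0.00, -0.05 and 0.38 over the 12 iPSC libraries. All 4 genes were lower in the 8 libraries of the withdrawal experiment than in the 16 others: Dppa3 at 2.59 to 4.00 against 5.02 to 6.61, Rpl41 at 4.57 to 5.06 against 6.74 to 7.62, Ewsr1 at 7.81 to 8.34 against 8.73 to 9.16 and Gm13456 at -0.35 to 1.28 against 3.49 to 4.26. Levels of Dppa3 thus moved with the experiment, and growth without feeder cells and other differences between the experiments cannot be told apart. Fibroblast and feeder markers at 0 h summed to 5650 CPM in F121, 6190 CPM in V6.5 and 2150 to 3130 CPM in the clones. They summed to 4930 to 5770 CPM in the CM lines, and their part in the level of Dppa3 was not tested. Reads also fell on the pseudogene row Dppa3-ps. Its share of the reads on both rows was 16.7% to 31.0% in the libraries from castaneus crosses and 0% to 1.17% in the Mus musculus libraries. With both rows added, the difference between XX and XY ESCs was 0.03 and that between 24 h and 0 h -0.66 (limma adjusted p 0.959 and 0.0249).

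**Figure D5:**
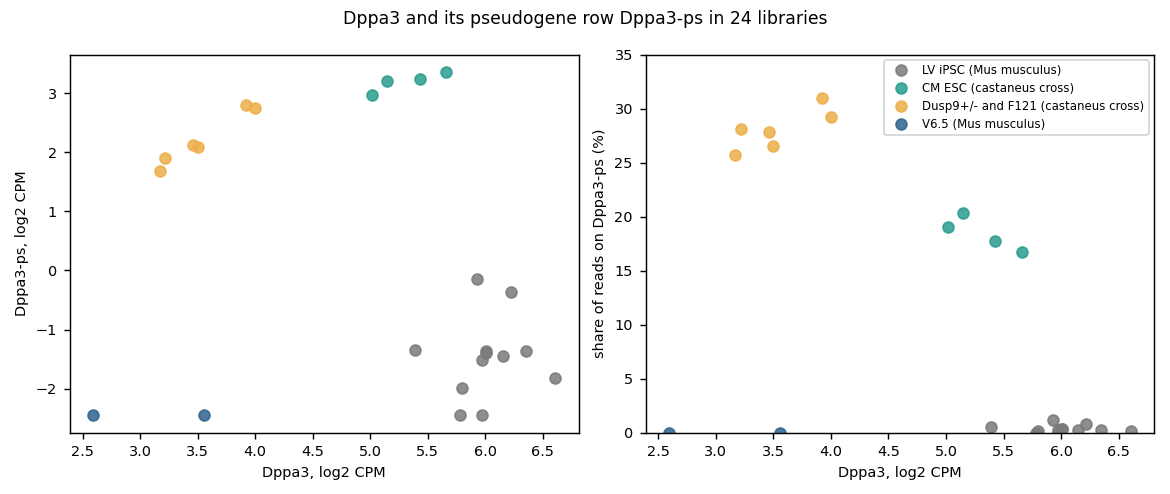
Level of the row Dppa3-ps (left, log2 CPM) and its share of the reads on Dppa3 and Dppa3-ps (right, %) against the level of Dppa3 (log2 CPM) in 24 libraries, coloured by line and cross. Libraries from castaneus crosses lie at shares of 16.7% to 31.0% and Mus musculus libraries at 1.17% or below, and the withdrawal libraries hold the lowest Dppa3.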

How the data were processed

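RNA-seq libraries (TRIzol, a stranded mRNA kit, single-end reads, per the labels' protocols) were analysed from 1 table of 24 columns deposited by the authors. The series has 52 samples, of which 20 ATAC-seq samples are not analysed here. Its values are log2 CPM, a unit other than raw counts, written by the authors with decimal commas. STAR 2.5.3a, featureCounts, edgeR, GRCm38 and mm10 are named in the submitters' processing notes, without their roles. The values gave back whole reads in 100% of cases within 0.01 read, with an offset of 2.0 reads on average, and 8309171 to 14245900 reads per library. Each line and time of the withdrawal experiment has 2 labelled libraries but 1 column, used as 1 value.

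Genes with a mean CPM of at least 1 were tested with limma 3.58.1 in R 4.3.3 (lmFit, eBayes with trend, two-sided), with p-values adjusted across every tested gene by the Benjamini-Hochberg method and a threshold of 0.05. The 12 iPSC libraries were fitted with 4 group means, the ESC lines with the experiment as a covariate, and the withdrawal libraries with 6 means of genotype and time, or with genotype as a covariate for time. The labels name lines and clones but no separate cultures, so p-values measure only the spread between these samples. The members and gene lists were chosen with earlier results of these data known. Besides the members, the text names up to 4 called genes with the largest change per list and comparison, the 3 genes most like each member by Pearson correlation, genes starting within 100 kb of a member, and Xist, Dusp9 and Y-linked genes. A single gene among those the rule picks is not reported here. The same 3 lines of each sex were sampled at both passages; their deviations correlated at -0.04 to 0.10, and the pairing comes from the line names. On simulated reads the ESC fit found 89.8% of 2-fold changes among 14085 genes, and the fit of the libraries labelled Dusp9+/- against F121 at 0 h found 46% among 14242.

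Alternatives were another pseudocount, filter, centring, voom on the recovered reads, a replicate block, other samples or covariates in the fit, and leaving out each library. Chosen after seeing the data were the fits without LV21 at both passages, the reads of Dppa3-ps added, each gene less the shift of its chromosome, the crossed clone numbers, and the differences between changes with withdrawal. Promoter sequences and positions are from RefSeq (GRCm38.p6).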

Additional observations from a re-analysis of the deposited data

How the results depend on the processing

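The number of members called moved as follows. At P7, 2 were called between female and male iPSCs, against 0 without the filter on low values, 0 with voom, 0 with the spread of the compared groups alone and 6 without LV21 at both passages, with 0 to 6 when 1 library was left out. The number called over all genes moved too, from 668 to 440, 547, 428 and 2079 in the same alternatives, and was 44 to 1727 when 1 library was left out. For female P13 against P7, 1 was called, against 0 without the filter, 0 with the spread of those groups alone and 4 without LV21 at both passages, with 0 to 4 when 1 library was left out. Among all genes it was 1258, against 953, 436 and 1933, with 174 to 2079 when 1 library was left out. For male P13 against P7, 1 was called, against 2 with the spread of those groups alone and 0 less the shift of the chromosome, with 0 to 1 when 1 library was left out. Among all genes it was 1823, against 2329 and 1956, with 429 to 2198 when 1 library was left out. The difference between those changes gave 0, against 1 without LV21 at both passages and 0 to 1 when 1 library was left out. Among all genes it gave 0, against 63 and 0 to 145. XX against XY ESCs gave 6, against 3 without the experiment covariate and 3 to 6 when 1 library was left out. Among all genes this was 1020, against 149 and 208 to 1682. The libraries labelled Dusp9+/- against F121 gave 3 at 0 h, against 1 without the filter and 0 in the fit of both times, and 0 at 24 h, against 1 less the shift of the chromosome. Among all genes this was 1277 at 0 h, against 200 and 1904, and 366 at 24 h, against 575. The cause was not tested.

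With the replicate block of lines, 2 members and 1551 genes were called for female P13 against P7. With line and clone as a block, 6 members and 3607 genes were called between 24 h and 0 h. With the 2 clone numbers crossed in the pairing, 7 members and 4493 genes were called.

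Directions turned for uncalled differences only. Between female and male iPSCs at P13, Dppa3 was -0.20 without LV20 and -0.07 without LV16 (range without 1 library -0.20 to 0.22), and Zfp42 -0.06 less the shift of the chromosome. For female P13 against P7, Fbxo15 was -0.18 without LV21 at P7 (range -0.18 to 0.30) and -0.11 without LV21 at both passages. For males, Dppa3 was 0.06 without LV16 at P13 (range -0.21 to 0.06) and Prdm14 -0.06 without LV4 at P7 (range -0.06 to 0.43). For the difference of those changes, Dppa5a ranged over -0.33 to 0.23 without 1 library and was -0.37 without LV21 at both passages, and Fbxo15 over -0.42 to 0.06. Dppa3 was 0.03 between XX and XY ESCs with the Dppa3-ps reads added. At 0 h Dppa5a was -0.03 after median centring, -0.10 without clone 1 (0.16 without clone 2) and -0.12 in the fit of both times, which at 24 h gave -0.20 for Zfp42 and -0.06 for Dppa3. The change in the libraries labelled Dusp9+/- minus that in F121 was -0.03 for Prdm14 without clone 2 at 24 h (range -0.03 to 0.41). Groups held 1 to 3 libraries, and depth was 8309171 to 14245900 reads.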
